A study of Mus musculus with 144 samples.

Results

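The genes that set mesangial cells apart from the other cells of the healthy glomerulus were measured in 24 RNA-seq libraries of the 144 in the series. They came from WT mice of 6 weeks and comprised 8 libraries of mesangial cells, 8 of podocytes and 8 of glomerular endothelial cells (gECs), each with 4 females and 4 males. A gene was taken as a mesangial identity gene when its counts were at least 4-fold higher in mesangial cells than in podocytes and at least 4-fold higher than in gECs, both at an adjusted p below 0.05, and its mean TPM (a transcript level corrected for transcript length and for the size of the library) was 4 times that of each other type and at least 1. Of 16917 genes tested, 732 met the rule.

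All mice were BTBR, wild type for Lep (the leptin gene that is mutated in the ob/ob mice of the series), and carried the Rosa26 mT/mG reporter with a Cre transgene active in podocytes. In this reporter every cell makes membrane tdTomato until Cre recombinase switches it to EGFP. Glomeruli were isolated with magnetic beads and digested, and the cells were sorted: mesangial cells as CD73+, PODXL- and EGFP-, podocytes as EGFP+ and CD73-, and gECs as PODXL+, EGFP- and CD73-. CD45+ cells and dead cells were gated out. The labels do not say whether libraries with the same number came from 1 mouse, nor how many mice gave each library, so the p-values measure the spread between these libraries.

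Mesangial cells are the pericyte-like cells that hold the capillary loops of the glomerulus together. They contract in response to vasoactive hormones, make and remodel the mesangial matrix, and depend on PDGF-B from the endothelium, which they sense through PDGFRβ. They share an embryonic origin with vascular smooth muscle and renin cells of the kidney stroma, and integrin α8 is one of their best known surface markers.

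Depth was similar in the 3 cell types, at 24.5 to 33.4 M counts (M for mega) per mesangial library, 22.5 to 29.4 M per podocyte library and 22.3 to 35.0 M per gEC library. Mitochondrial genes took 6.39 to 9.07% of the counts. The first 2 principal components held 52.9% and 32.9% of the variance and separated the 3 cell types, and each library correlated with the median of its own type at r of 0.968 or more. Podocyte markers were measured in the gEC libraries as well. Over 14 of them, the median level was 1.48 to 10.6% of that in podocytes in the gEC libraries, with male replicates 1 and 2 highest at 8.27% and 10.6%, against 0.423 to 0.900% in the mesangial libraries. Leaving out those 2 gEC libraries gave 747 identity genes, of which 719 were among the 732.

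The genes of the sort gate were checked first, as they were fixed by the sort and are no finding. Nt5e, which encodes CD73, lay between 328 and 382 TPM in the mesangial libraries (median 373), between 0.05 and 1.79 in podocytes (median 0.515) and between 6.37 and 13.2 in gECs (median 8.93). Podxl, the gene of the podocalyxin that was gated against, lay between 2.11 and 17.1 TPM in mesangial cells (median 7.42), between 6475 and 7650 in podocytes (median 7467) and between 1204 and 1856 in gECs (median 1392). The levels followed the gate in every library, with no overlap between mesangial cells and either other type.

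The known mesangial markers stood far above the other cells. Itga8 (integrin α8; chr2:12106632-12301922, minus strand, GRCm38) lay between 2088 and 2419 TPM in mesangial cells (median 2235), between 1.58 and 6.17 in podocytes (median 4.32) and between 1.12 and 11.5 in gECs (median 3.49). Its log2 fold change was 9.55 ± 0.50 (SE) against podocytes and 8.98 ± 0.49 against gECs (edgeR adjusted p = 5.14e-15 and 1.56e-14, n = 8 per type). Pdgfrb, the PDGF-B receptor (chr18:61045150-61085061, plus strand), lay between 1042 and 1441 TPM in mesangial cells (median 1256), against 4.31 to 9.88 in podocytes (median 6.02) and 2.76 to 8.56 in gECs (median 4.17), 174-fold and 248-fold differences. Serpine2, which encodes the protease inhibitor protease nexin-1 (chr1:79794197-79861180, minus strand), lay between 2914 and 4086 TPM (median 3475), against 2.25 to 12.3 in podocytes (median 6.30) and 15.5 to 35.7 in gECs (median 22.1). In all 3 genes every mesangial library was far above every other library.

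Of 19 textbook mesangial and pericyte markers, all 19 were tested, 19 were called higher than in both other types and 17 were identity genes. Their median log2 fold change was 8.89 against podocytes and 7.33 against gECs, beside medians of -0.06 and -0.09 over all genes tested. Their summed level was 19700 to 24200 TPM in mesangial libraries, 81.3 to 183 in podocytes and 3140 to 4060 in gECs. The markers matched the labelled cell type, and they were chosen with results of these data known, so this is a check of the label and not independent evidence.

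At an adjusted p below 0.05, 5978 genes (35.3% of those tested) were higher and 6379 (37.7%) lower in mesangial cells than in podocytes. Against gECs, 5290 genes (31.3%) were higher and 6272 (37.1%) lower. Higher than in both were 2841 genes (16.8%) and lower than in both 3060 (18.1%). These shares are the background for each gene group below. Which of the 2 counts was larger depended on the processing, as described in the last section. With the 4-fold rule, 732 genes (4.33%) were identity genes and 380 (2.25%) were at least 4-fold lower than in both. The plot of one contrast against the other shows both sets in opposite corners.

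**Figure D1:**
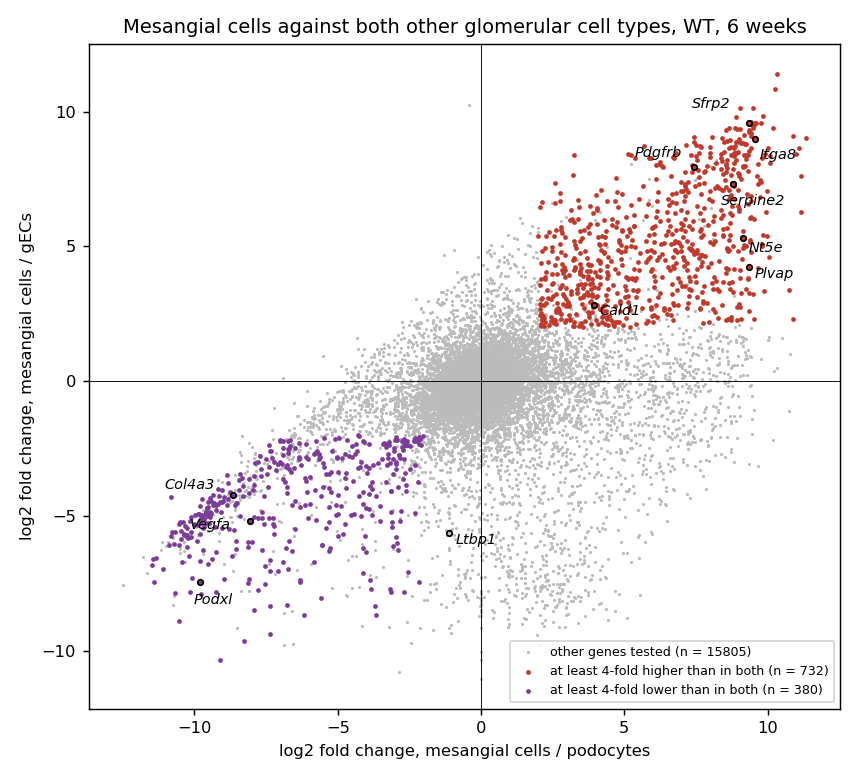
Log2 fold change of each of the 16917 genes tested between mesangial cells and podocytes (x axis) and between mesangial cells and gECs (y axis), 8 libraries per type. Each point is a gene, with the 732 identity genes in red, the 380 genes at least 4-fold lower in purple and all others in grey. Itga8, Sfrp2 and Pdgfrb lie high on both axes, while Cald1 lies nearer to the limit at 3.93 and 2.84.

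Identity genes were clearly separated. In 712 of the 732, the lowest mesangial library was above all 16 others in TPM, a pattern found in 1636 genes (9.67%) of those tested, and the 4-fold rule itself favours it. The smaller of the 2 log2 fold changes ranged from 2.00 to 10.34 with a median of 4.20. It was at least 16-fold for 394 genes. In all, 645 were protein coding and 58 were long noncoding or antisense RNAs. The identity genes took 7.48 to 8.97% of all transcripts in the mesangial libraries, 0.266 to 0.318% in podocytes and 0.390 to 0.483% in gECs. This gap follows from the 4-fold rule, which was applied to TPM in the same libraries. Just inside the limit lay Mark1, a microtubule affinity regulating kinase, at 2.00, and just outside lay Sec24d, a coat protein of transport vesicles, at 1.99, so the limit divides a continuous range.

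The 20 leading genes by the smaller fold change, among those with at least 20 TPM, spanned matrix, signalling and transport. Entry also required every mesangial library to lie above every other library in TPM. Gate genes and symbols of the Gm or Rik form were left out. Postn (periostin, a matricellular protein) lay between 23.2 and 49.3 TPM in mesangial cells (median 38.2), and its highest value elsewhere was 0.15. Sfrp2, a secreted modulator of Wnt signalling, lay between 4418 and 6078 TPM (median 5044) and was 648-fold higher than in podocytes and 766-fold higher than in gECs. Sfrp2 had the highest level of all identity genes. Mrc1, the macrophage mannose receptor, lay between 280 and 350 TPM (median 328), against 0.09 to 0.67 in podocytes (median 0.295) and 0.0 to 1.22 in gECs (median 0.155). Steap4, a metalloreductase, had a median of 529 TPM and Cxcl13, a chemokine that attracts B cells, one of 146. Abcb1a, which encodes a P-glycoprotein drug efflux pump, had a median of 40.6 TPM. Others of the 20 were Cpne4, Pdgfra, Col6a3, Gucy1b3, S1pr3, Gata3, Gucy1a3, Glb1l2, Trpc4, Itga8, Trpc6, Tmem182 and Zfp804a. The smaller log2 fold changes of the 20 were 8.90 to 10.26.

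**Figure D2:**
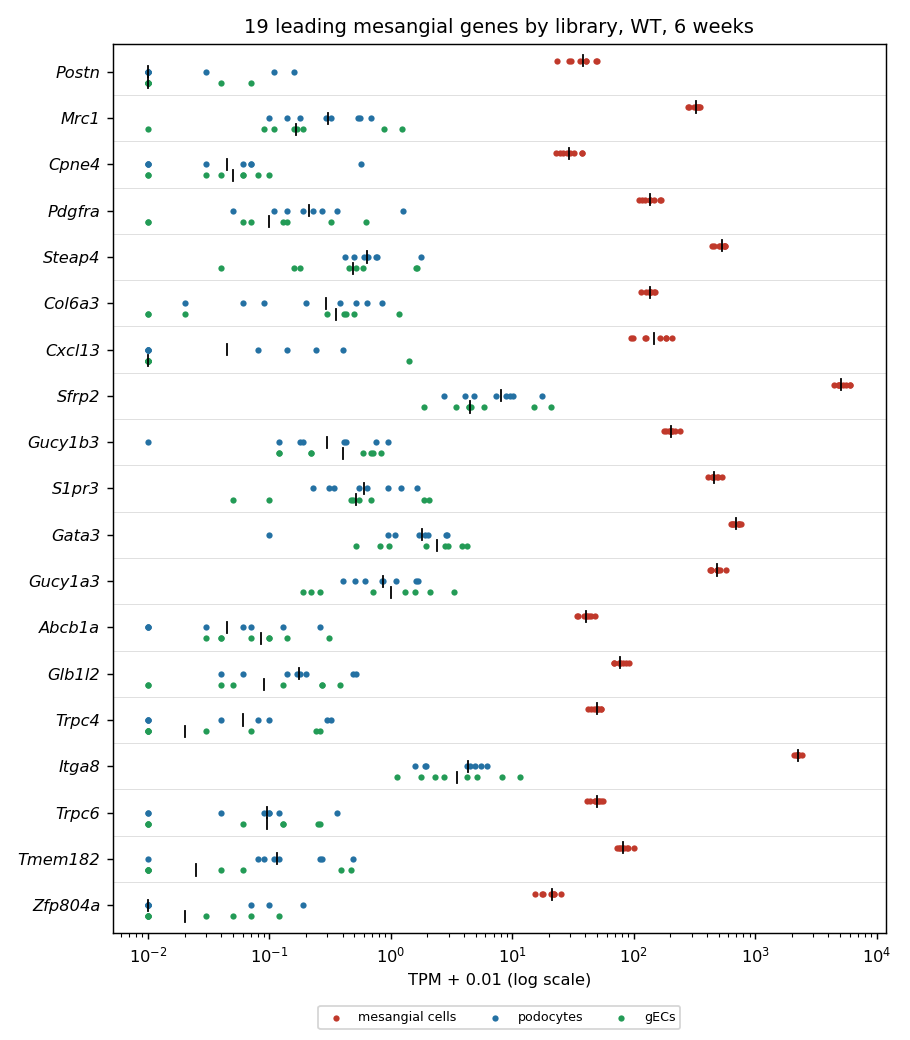
TPM of 19 of the 20 leading mesangial genes in each of the 24 libraries, on a log axis after adding 0.01. Points are libraries, coloured by cell type, and black bars are medians. Every mesangial library lies above all podocyte and gEC libraries, which was a condition for a gene to enter. Mrc1, for example, had 280 TPM or more against 1.22 at most.

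Over the 100 leading identity genes with at least 20 TPM, the median level in a library was 0.0632 to 0.419% of the mesangial mean in podocytes and 0.152 to 0.580% in gECs. These genes were ranked by fold in the same libraries, so low levels follow from the choice. The part of sorting impurity in these levels was not tested.

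By abundance, the 10 leading identity genes were Sfrp2, Igfbp4, Serpine2, Ctgf, Cald1, Itga8, Ptn, Mfge8, Col4a2 and Bgn. Igfbp4, a binding protein of insulin-like growth factors, lay between 3867 and 5379 TPM (median 4576) and was 416-fold higher than in podocytes but 10.7-fold higher than in gECs, where it was itself expressed at 330 to 551 TPM. Ctgf, the matricellular connective tissue growth factor, lay between 2961 and 3938 TPM (median 3417), with 387 to 739 in podocytes (median 433) and 14.3 to 65.9 in gECs (median 31.2). Ptn (pleiotrophin, a heparin-binding growth factor) had a median of 2203 TPM, and Bgn (biglycan, a small proteoglycan) one of 1389. The most abundant genes were not all among the most specific, since Ctgf was only 6.78-fold above podocytes.

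Transcription factors were led by Gata3. Of 45 factors tested out of 52 listed, 17 were higher than in both other types, 6 were lower than in both and 22 were neither. Gata3, a zinc finger factor known in the mesangial lineage (chr2:9857078-9890034, minus strand), lay between 634 and 757 TPM in mesangial cells (median 694), between 0.09 and 2.87 in podocytes (median 1.80) and between 0.51 and 4.19 in gECs (median 2.38). It was 679-fold above podocytes and 593-fold above gECs (edgeR adjusted p = 4.84e-16 and 8.51e-16). Twist1, a basic helix-loop-helix factor of mesenchyme, lay between 58.5 and 70.1 TPM (median 62.4) and no higher than 0.41 elsewhere. Its relative Twist2 lay between 2.50 and 10.3 TPM (median 5.31) and had 0 counts in all 16 other libraries, so it was at least 231-fold higher than in podocytes and at least 251-fold higher than in gECs, taking 3 counts over each group of 8 libraries as the floor. Heyl, a Notch target, had a median of 19.4 TPM. Among those lower than in both, Lmx1b (median 378 TPM in podocytes, 12.6 in gECs and 0.625 in mesangial cells) and Foxd1 (68.6, 2.81 and 0.14) are factors known in podocytes. In gECs both were highest in male replicates 1 and 2 (22.4 and 32.9 TPM for Lmx1b, 5.46 and 7.25 for Foxd1), the libraries with the highest podocyte marker level, whose part in these values was not tested.

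Both receptors of the PDGF family were identity genes: Pdgfrb as described, and Pdgfra with 109 to 169 TPM in mesangial cells (median 136), 0.04 to 1.25 in podocytes (median 0.20) and 0.0 to 0.61 in gECs (median 0.09). Of the ligands, Pdgfa (median 63.1 TPM, against 0.745 in podocytes and 11.9 in gECs) and Pdgfc (median 25.5 TPM, with 3 counts over all podocyte libraries and 22 over all gEC libraries) were identity genes as well. All 7 members were tested, 4 were higher than in both and none was lower than in both.

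Ligands of the VEGF and angiopoietin families were unevenly shared. Figf (VEGF-D) lay between 61.1 and 76.3 TPM in mesangial cells (median 67.0) and at 0.77 or less elsewhere. Pgf (placental growth factor) had a median of 48.9 TPM, Vegfc one of 40.5 with 5.57 in gECs, and Angpt2, the context-dependent Tie2 ligand, one of 180 with 3.78 in gECs and 0.62 in podocytes. Vegfa went the other way. It lay between 4.85 and 20.4 TPM in mesangial cells (median 13.0), between 2877 and 3798 in podocytes (median 3405) and between 373 and 682 in gECs (median 452), with log2 fold changes of -8.06 ± 0.21 and -5.20 ± 0.18. Of 15 members tested, 6 were higher than in both, of which 4 were identity genes, 1 was lower than in both and 8 were neither.

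Receptors and effectors of vasoactive signals were often higher in mesangial cells. Of 34 tested out of 42 listed, 18 (52.9%) were higher than in both, 13 of them identity genes, and 4 were lower. The median log2 fold change of those tested was 2.96 against podocytes (2.76 with genes at 0 counts set to their bound) and 1.68 against gECs. Both subunits of soluble guanylate cyclase, the nitric oxide receptor, were among the 20 leading genes. Gucy1a3 lay between 427 and 575 TPM in mesangial cells (median 484) and at 3.31 or less elsewhere, and Gucy1b3 lay between 176 and 242 TPM (median 201) and at 0.94 or less elsewhere. Nos3, the endothelial nitric oxide synthase, had a median of 101 TPM in gECs, 0.45 in mesangial cells and 0.16 in podocytes. Synthase and receptor transcripts were thus highest in different cell types.

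S1pr3, a sphingosine-1-phosphate receptor, lay between 409 and 536 TPM in mesangial cells (median 454), between 0.22 and 1.62 in podocytes (median 0.585) and between 0.04 and 2.04 in gECs (median 0.51). Rgs4, which shortens G protein signals, lay between 85.5 and 191 TPM (median 129) and at 2.03 or less elsewhere. A set of 3 receptors of constrictors was named after their values were seen, while 8 listed members of the group, other constrictor receptors among them, were not tested. Agtr1a, the angiotensin II receptor, lay between 530 and 668 TPM (median 630) and was 647-fold above podocytes and 374-fold above gECs. Avpr1a, the vasopressin receptor, lay between 22.9 and 71.0 TPM (median 39.7), and Ednra, the endothelin A receptor, between 28.9 and 36.0 (median 33.1). Avpr1a varied among mesangial libraries with a CV of 48.3%, Agtr1a with 7.56% and Ednra with 6.39%. Among those lower than in both was Ptgfr, the prostaglandin F receptor, with at most 0.29 TPM in mesangial cells against 15.6 to 22.3 in podocytes (median 18.5) and 0.23 to 2.08 in gECs (median 0.98).

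**Figure D3:**
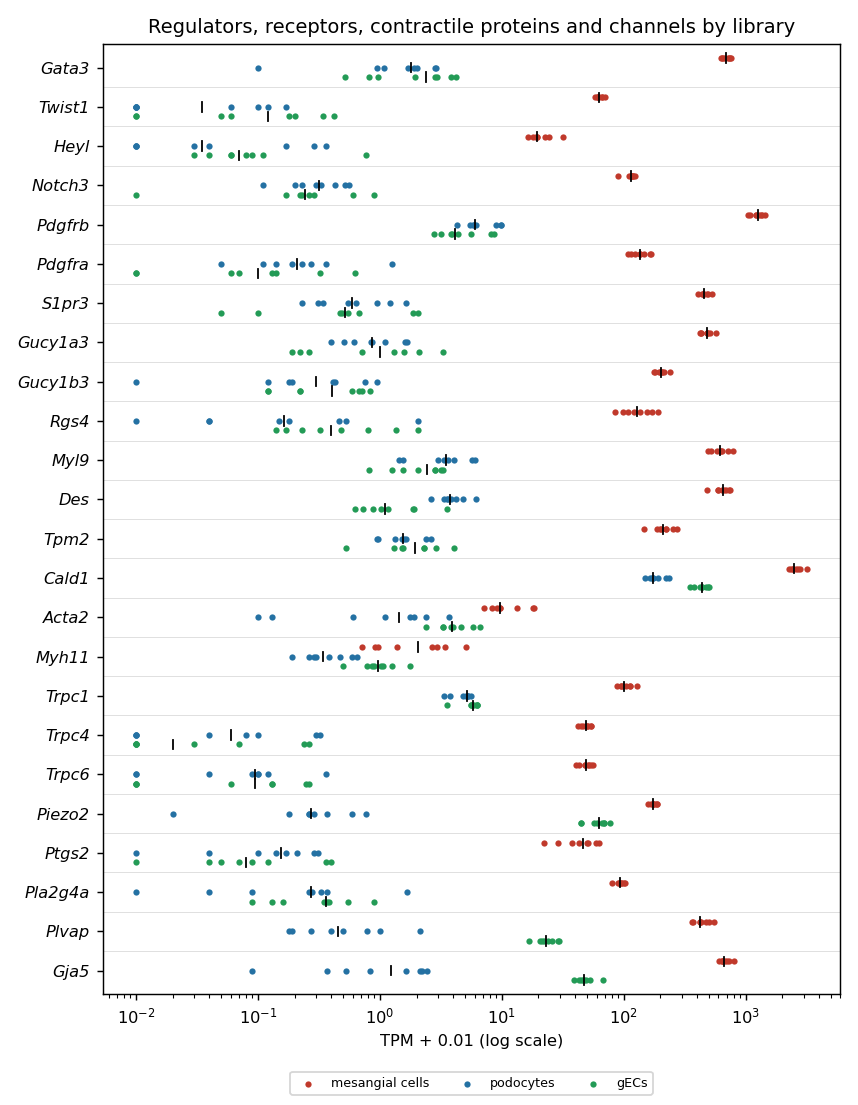
TPM of 24 regulators, receptors, contractile proteins, channels, prostaglandin enzymes and genes known from endothelium in each of the 24 libraries, on a log axis after adding 0.01. Points are libraries, coloured by cell type, and black bars are medians. Gata3, S1pr3 and Myl9 separate mesangial cells from both other types in every library, whereas Myh11 in mesangial cells (0.71 to 5.05 TPM) overlaps gECs (0.49 to 1.77 TPM).

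The contractile apparatus had the largest share of higher genes of the groups not named for a cell type, with 16 of 22 tested members (72.7%, out of 25 listed) higher than in both, 7 of them identity genes, and none lower than in both. Its median log2 fold change was 2.76 against podocytes and 1.73 against gECs. Myl9, the regulatory light chain of smooth muscle myosin (chr2:156775420-156781658, plus strand), lay between 489 and 783 TPM in mesangial cells (median 622), between 1.44 and 6.01 in podocytes (median 3.47) and between 0.81 and 3.27 in gECs (median 2.43). Des (desmin, an intermediate filament of muscle) had a median of 653 TPM against 3.74 and 1.09, and Tpm2 (tropomyosin 2) one of 212 against 1.54 and 1.92. Cald1 (caldesmon, an actin-binding regulator) was the most abundant at 2253 to 3190 TPM (median 2515), but podocytes (median 174) and gECs (median 441) expressed it too. Kcnmb1, the beta 1 subunit of the large-conductance potassium channel, had a median of 4.12 TPM and at most 0.12 elsewhere. The listed members Kcnma1, Actg2 and Cnn1 were not tested.

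Acta2 and Myh11 were at low levels. Acta2 (smooth muscle actin) lay between 7.15 and 18.4 TPM in mesangial cells (median 9.64), between 0.09 and 3.71 in podocytes (median 1.42) and between 2.36 and 6.62 in gECs (median 3.88). Myh11 (smooth muscle myosin heavy chain) lay between 0.71 and 5.05 TPM (median 2.04), between 0.18 and 0.64 in podocytes (median 0.33) and between 0.49 and 1.77 in gECs (median 0.95). Both were called higher than in both types but fell short of 4-fold against gECs, at 2.83-fold and 2.23-fold. In males alone their difference from gECs was not called (log2 fold changes of 1.22 and 1.18). The 8 smooth muscle markers summed to 37.3 to 67.2 TPM in mesangial libraries, 172 to 263 in podocytes, where Ntrk3 (median 185 TPM) made up most of it, and 14.6 to 30.8 in gECs. Mustn1 was an identity gene at 22.3 to 43.7 TPM (median 34.6), against medians of 3.95 in podocytes and 2.87 in gECs. Tagln, an actin-binding protein, had a median of 4.49 TPM, against 6.78 and 7.57. Actg2, a smooth muscle actin, was at a median of 0.0 TPM in all 3 types.

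The start regions of the contractile genes that were higher than in both were examined for motifs of muscle gene regulation, since 16 members were higher together. RefSeq start regions on GRCm38.p6, from 250 bases before to 50 bases after the start, were found for 15 of the 16 genes, 16 regions in all. A CArG box, the site of serum response factor, was present on either strand in 2 of the 16 (12.5%) and in 1.63% of all 32851 regions of that length. The letters CATTCC, the core of TEAD sites, were present on either strand in 8 of the 16 (50.0%) and in 14.7% of all regions. The other motifs searched on both strands were GGGCGG (68.8% of the 16 and 35.7% of all), CAGCTG (25.0% and 16.3%), TATAAA (18.8% and 13.6%), TGANTCA (12.5% and 7.81%) and AGATAA (0.0% and 11.2%). These are descriptions of letters and show no binding. Both regions with a CArG box are printed below 5′ to 3′ with the box in capitals. It begins 161 bases before the start in Myl9 (chr2:156775214-156775513, plus strand) and 56 bases before it in Cnn2, the calponin 2 gene (chr10:79988350-79988649, plus strand).
Myl9: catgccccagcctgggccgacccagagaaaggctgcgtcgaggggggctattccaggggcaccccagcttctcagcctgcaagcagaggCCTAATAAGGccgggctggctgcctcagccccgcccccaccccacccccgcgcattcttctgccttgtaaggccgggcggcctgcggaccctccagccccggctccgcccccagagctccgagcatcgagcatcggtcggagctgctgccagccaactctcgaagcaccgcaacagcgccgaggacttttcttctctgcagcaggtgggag
Cnn2: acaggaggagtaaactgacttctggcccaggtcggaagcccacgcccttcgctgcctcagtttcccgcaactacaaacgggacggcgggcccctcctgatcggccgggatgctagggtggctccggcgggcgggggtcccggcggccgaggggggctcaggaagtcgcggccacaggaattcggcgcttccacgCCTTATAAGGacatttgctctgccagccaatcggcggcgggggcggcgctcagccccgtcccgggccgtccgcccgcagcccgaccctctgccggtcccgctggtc

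Ion channels that respond to stretch or to receptors included 3 identity genes of the TRPC family. Trpc1 lay between 89.0 and 130 TPM in mesangial cells (median 101), between 3.36 and 5.55 in podocytes (median 5.15) and between 3.53 and 6.27 in gECs (median 5.81). Trpc4 had a median of 49.6 TPM and at most 0.31 elsewhere, and Trpc6, the channel mutated in some hereditary podocyte diseases, lay between 41.0 and 55.6 TPM in mesangial cells (median 49.6) but between 0.0 and 0.35 in podocytes (median 0.085). Piezo2, a stretch-gated channel, lay between 157 and 187 TPM in mesangial cells (median 175), between 44.7 and 77.9 in gECs (median 63.3) and at 0.76 or less in podocytes. Asic2 and Trpm3 were lower than in both, with at most 0.04 and 0.24 TPM in mesangial cells. Of 17 channels tested out of 22 listed, 6 were higher than in both (35.3%), 4 lower and 7 neither.

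Purine signalling genes, of which Nt5e makes adenosine from AMP, were led by P2rx1, an ATP-gated channel, with 89.4 to 166 TPM in mesangial cells (median 130), 0.0 to 0.93 in podocytes (median 0.135) and 2.21 to 5.02 in gECs (median 4.05). Adora2b, an adenosine receptor, had a median of 4.99 TPM and at most 0.59 elsewhere. Of 16 tested, 6 were higher than in both and 1 was lower. In prostaglandin synthesis, Pla2g4a, which frees arachidonic acid, had 80.9 to 102 TPM in mesangial cells (median 94.2) and Ptgs2 (cyclooxygenase 2) 22.2 to 62.9 (median 46.5), with at most 1.65 and 0.39 elsewhere. Of the terminal prostaglandin E synthases, Ptges3 and Ptges2 differed little, and Ptges, also listed, was not tested. Ptges3 was 0.27 ± 0.08 and 0.23 ± 0.08 higher on the log2 scale, and Ptges2 0.20 ± 0.09 and 0.34 ± 0.09, with overlapping libraries. Ptges2 lost its call against podocytes with limma on TPM (0.03), without the sex term (0.21), in males alone (0.09) and without any one of 8 single libraries.

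Basement membrane genes split by chain. Of 26 tested, 9 were higher than in both and 9 lower than in both, near the same number in each direction. The higher genes held the collagen IV chains of the mesangium, of which Col4a2 lay between 1388 and 2195 TPM (median 1770), between 35.4 and 53.3 in podocytes (median 38.4) and between 323 and 541 in gECs (median 444). Nid1 (nidogen 1) lay between 458 and 618 TPM (median 532), with 92.6 to 146 in gECs (median 116) and 1.68 to 2.78 in podocytes (median 2.10). Lama2 (laminin α2) had a median of 26.6 TPM and at most 0.66 elsewhere. Frem2 and Fras1, which form a complex at embryonic basement membranes, had medians of 11.9 and 12.5 TPM. The lower genes included chains of the mature glomerular filter made by podocytes. Col4a3 had medians of 4.80 TPM in mesangial cells, 1649 in podocytes and 61.3 in gECs, and Col4a5 had 0.395, 268 and 8.86. In gECs both were highest in male replicates 1 and 2 (170 and 156 TPM for Col4a3, 26.8 and 24.7 for Col4a5). The same held in gECs for Asic2, above, and for Itgb8, Bmp7 and Cd55, below. These libraries had the highest podocyte marker level, whose part in these values was not tested.

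**Figure D4:**
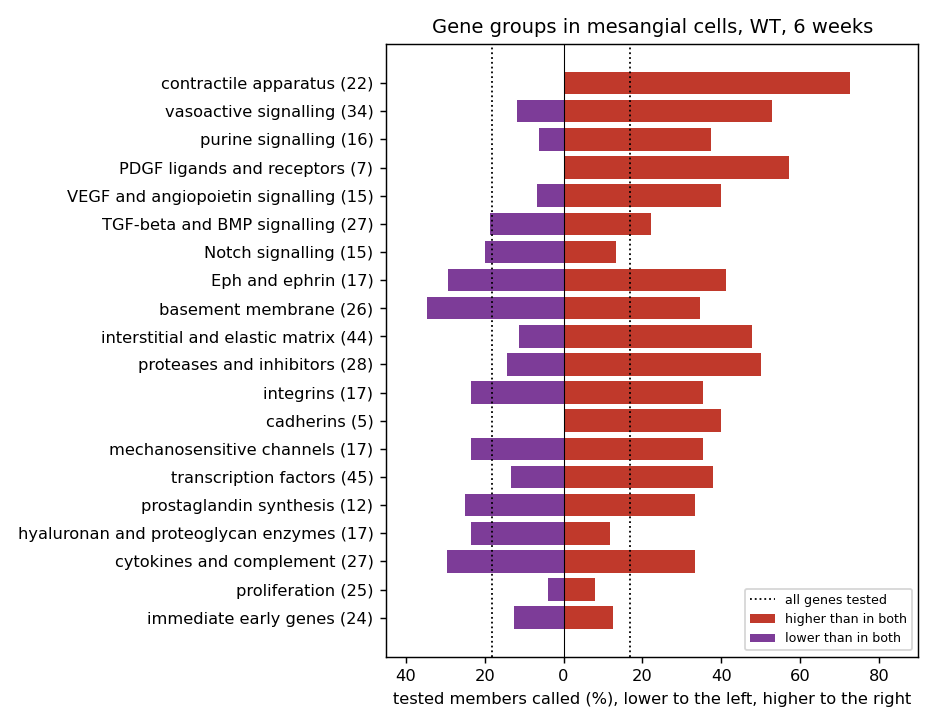
Share of the tested members of each gene group (number tested in brackets) called higher (red, to the right) or lower (purple, to the left) in mesangial cells than in both other types. Dotted lines mark the same shares over all genes tested, 16.8% and 18.1%. The contractile apparatus reaches 72.7% higher, and basement membrane genes have bars of equal length on both sides.

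Interstitial and elastic matrix genes were more often higher. Of 44 tested out of 48 listed, 21 (47.7%) were higher than in both and 5 lower. Col6a3 (collagen VI α3) lay between 115 and 150 TPM in mesangial cells (median 135) and at 1.16 or less elsewhere. Mfge8 (lactadherin, a bridge to integrins) had a median of 1793 TPM with 178 in podocytes and 97.2 in gECs. Dcn (decorin) was much lower than its relative biglycan, at 4.84 to 20.9 TPM (median 10.4). Efemp1, a fibulin, and Loxl1, a collagen and elastin crosslinker, were lower than in both, at medians of 0.0 and 0.01 TPM against 28.9 and 5.58 in podocytes.

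Genes for remodelling that matrix were often higher too. Of 28 proteases and inhibitors tested out of 32 listed, 14 (50.0%) were higher than in both and 4 lower. Plau (urokinase) lay between 216 and 315 TPM in mesangial cells (median 270), between 0.06 and 0.94 in podocytes (median 0.395) and between 0.54 and 2.86 in gECs (median 0.80). Plat, the tissue plasminogen activator, was lower than in both, with 61.8 to 129 TPM in mesangial cells (median 71.8), 1285 to 1485 in podocytes (median 1425) and 1565 to 3649 in gECs (median 2549). The 2 plasminogen activators therefore had opposite patterns. Mmp3 and Mmp16, matrix metalloproteinases, had medians of 9.12 and 25.9 TPM and at most 0.08 and 0.49 elsewhere.

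Matrix receptors were divided as well. Of 17 integrins tested, 6 were higher than in both and 4 lower. Besides Itga8, Itga4 lay between 261 and 316 TPM in mesangial cells (median 297) and at 2.07 or less elsewhere, Itga1 had a median of 134 TPM against 8.74 and 10.8, and Itga7 one of 8.21. Itgb8 went the other way, with at most 0.49 TPM in mesangial cells against 84.1 to 110 in podocytes (median 99.2). Of the cadherins, Cdh2 was an identity gene at a median of 9.83 TPM, and Cdh11 had a median of 132 TPM, 30.1 in podocytes and 2.29 in gECs, just under 4-fold against podocytes.

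In the TGF-beta and BMP pathway, 6 of 27 tested genes (22.2%) were higher than in both and 5 lower, close to the background of 16.8% and 18.1%. Gdf10, a BMP-like ligand, lay between 335 and 465 TPM in mesangial cells (median 384), between 0.23 and 1.07 in podocytes (median 0.485) and between 1.98 and 5.36 in gECs (median 3.88). Tgfb3 had a median of 18.0 TPM, and Bmp4 one of 35.7 with 10.6 in gECs. Bmp7, a ligand made by podocytes, was at 0.47 TPM or less in mesangial cells and at a median of 163 in podocytes. Ltbp1, which holds latent TGF-beta in the matrix, was highest in gECs (median 131 TPM), lower in podocytes (42.7) and lowest in mesangial cells (24.7). Mesangial and podocyte libraries overlapped in TPM. By counts its log2 fold change was -1.10 against podocytes and -5.63 against gECs, a larger difference from gECs than by TPM.

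Notch genes showed 1 receptor and 1 target on the mesangial side. Notch3 lay between 89.2 and 123 TPM in mesangial cells (median 116) and at 0.89 or less elsewhere, and Heyl, described above, was the other. Hey2 (median 0.54 TPM, against 3.12 in podocytes and 12.2 in gECs) and Mfng (median 0.175 TPM, against 34.2 in gECs) were lower than in both. Only 2 of 15 tested genes (13.3%) were higher than in both and 3 lower, so the group as a whole did not stand above the background. Among Eph receptors and ephrins, 7 of 17 were higher, led by Epha3 (median 9.73 TPM) and Epha7 (median 32.3), and 5 were lower, with Epha2 at a median of 4.93 TPM against 66.4 in podocytes and 73.5 in gECs.

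Secreted immune and complement genes went in both directions, with 9 of 27 tested higher than in both and 8 lower. C1s1, a protease of the classical complement pathway, had a median of 229 TPM against 7.99 in podocytes and 2.08 in gECs. Cxcl1, a neutrophil chemokine, ranged widely, from 338 to 1232 TPM in mesangial cells (median 592), with 2.95 to 12.7 in podocytes (median 9.01) and 10.3 to 44.0 in gECs (median 25.3). Cd55, a complement inhibitor on the cell surface, was at 0.71 TPM or less in mesangial cells and between 292 and 390 in podocytes (median 357).

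The 8 markers of other endothelium were split. All were tested, 4 were higher than in both, 3 of them identity genes, and 4 were lower than in gECs, and the summed level was 983 to 1370 TPM in mesangial cells, 1.33 to 7.85 in podocytes and 431 to 593 in gECs. The lower ones were Sox18 (median 2.71 TPM in mesangial cells against 363 in gECs), Fbln2 (0.44 against 35.1), Aplnr (0.295 against 26.0) and Vwf (1.12 against 5.86). Plvap, the protein of endothelial fenestral diaphragms, lay between 362 and 550 TPM in mesangial cells (median 427), between 16.8 and 29.7 in gECs (median 23.2) and at 2.13 or less in podocytes, an 18.8-fold difference from gECs (edgeR adjusted p = 1.33e-15). Gja5 (connexin 40, of gap junctions) lay between 607 and 803 TPM in mesangial cells (median 670), between 39.0 and 67.9 in gECs (median 47.0) and at 2.42 or less in podocytes. The 15 gEC markers were measured beside them. Defining members were low in mesangial cells, with Pecam1 at 2.07 to 9.29 TPM (median 3.97, against 1183 in gECs), Cdh5 at 1.18 to 8.89 (median 2.43, against 1030) and Kdr at 2.00 to 13.7 (median 3.96, against 1823). None of the 15 was at 0 in the mesangial libraries, 2 were called lower than in both and 14 lower than in gECs, and the summed level was 1650 to 2000 TPM in mesangial cells against 13200 to 17600 in gECs.

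Other members of the gEC list were well above those levels in mesangial cells. These were named after their values were seen. Eng, a TGF-beta co-receptor, lay between 850 and 1042 TPM in mesangial cells (median 896), between 1044 and 1663 in gECs (median 1315) and at a median of 1.71 in podocytes. Its difference from gECs, -0.53 ± 0.25 on the log2 scale, was not called (edgeR adjusted p = 0.0648) although the libraries did not overlap, and it was called in females alone (-0.53), with gECs and mesangial cells fitted alone (-0.45) and without any one of 4 single libraries (-0.53 to -0.59; podocyte female 1, male 1 or male 3, or gEC male 1). Tek, the receptor of the angiopoietins, lay between 112 and 155 TPM in mesangial cells (median 139) and 323 to 451 in gECs (median 380). Ehd3 had medians of 381 and 1554 TPM, with 11.8 in podocytes, Emcn of 113 and 2866, and Esam of 107 and 311. The ratio of the mesangial to the gEC level thus differed widely within the list, from below 1% for Pecam1, Cdh5 and Kdr, whose folds were 0.00395, 0.00354 and 0.00351, to 0.355 for Tek and 0.691 for Eng.

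Markers of cells outside the 3 sorted types varied in level in the mesangial libraries. Of 10 immune markers, 9 were under 1 TPM on average and 3 were at 0 in all 8 libraries, with Ptprc (CD45), Lyz2, C1qa, C1qb, Cd3e, Itgam and Cd74 at a median of 0.0 TPM and Csf1r at 0.97. Cd68, a macrophage protein of lysosomes, was the exception at 5.48 to 12.6 TPM (median 6.49), and the immune markers summed to 6.39 to 14.4 TPM. Mrc1 had a median of 328 TPM in the same libraries. The 7 parietal epithelium markers summed to 122 to 193 TPM in mesangial cells, 60.1 to 82.8 in podocytes and 127 to 338 in gECs, with Akap12 alone at 113 to 188 in mesangial cells. The 8 proximal tubule markers summed to 0.83 to 3.98 TPM and the 6 erythroid markers to 0.04 to 16.2. Among renin cell markers, Ren1 lay between 2.72 and 9.20 TPM (median 5.73) and Akr1b7 between 6.51 and 15.7 (median 8.78), against medians of 0.14 and 0.0 in podocytes and 0.595 and 0.085 in gECs. Crip1, also on that list, lay between 28.9 and 55.7 TPM (median 42.8), against a median of 287 in gECs. For Ren1, gEC male replicate 4 was above all 8 mesangial libraries at 11.0 TPM, and in males alone the difference from gECs was not called (1.04). Of the fibroblast markers, Pdgfra and Dcn were identity genes, while Col1a1, Lum, Dpt and Mfap5 had medians of 0.01 TPM or less in mesangial cells.

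Immediate early genes, which are known to respond to tissue digestion, ranged widely in level. Fos, an immediate early transcription factor, lay between 7500 and 10700 TPM in mesangial cells (median 8751), between 2846 and 7583 in podocytes (median 5608) and between 5885 and 8937 in gECs (median 7035), with overlapping ranges. Of 24 immediate early genes tested, 3 were higher than in both, 3 lower and none was an identity gene. Over all genes tested these shares were 16.8%, 18.1% and 4.33%. Fos was called higher than in gECs at 0.34 ± 0.15 (edgeR adjusted p = 0.0428), a call lost with limma on TPM (0.29), in each sex alone and without any one of 9 single libraries. Dusp1 and Nr4a3 were higher than in both at medians of 3472 and 206 TPM, and Egr2 (median 2.92 TPM in mesangial cells) and Ier2 were lower. Among mesangial libraries Fos, Dusp1 and Nr4a3 were highest in male replicates 2 and 3, as was Cxcl1 (1065 and 1232 TPM). Egr2 and Ier2 were highest in male replicate 3, with another library second. The part of digestion in these levels was not tested. Of 25 proliferation genes, 23 were higher than in podocytes but only 2 higher than in gECs, against 35.3% and 31.3% of all genes tested. None was an identity gene, against 4.33% of all, so few would be looked for among 25. Cdk1 lay between 6.40 and 19.2 TPM in mesangial cells (median 8.90), at a median of 0.185 in podocytes and of 5.44 in gECs, and its call against gECs was lost in males alone (1.19), as was that of Dusp1 (0.46).

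Of the 380 genes at least 4-fold lower in mesangial cells than in both, podocytes had the highest mean level in 295 and gECs in 85, and in 311 all 8 mesangial libraries were below all 16 others. In 280 of them neither of the other types was under 5% of the level in the other, and in 93 the gEC level was under 5% of the podocyte level, while podocyte markers stood at 1.48 to 10.6% in the gEC libraries. The part of podocyte RNA in these levels was not tested. Without the 2 gEC libraries in which that level was highest, 351 genes met the rule, 338 of them among the 380. Cldn5, a tight junction claudin listed as a gEC marker, was highest in podocytes (371 to 440 TPM), followed by gECs (46.8 to 71.3, median 63.8), with 0.08 to 1.59 in mesangial cells (median 0.33). Clic5, a chloride channel protein tied to the actin of foot processes, followed the same order with medians of 1084, 360 and 1.82 TPM. Sulf2, which removes sulfate from heparan sulfate, was at similar levels in podocytes (median 44.7) and gECs (median 39.9) and at a median of 0.28 in mesangial cells.

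Fewer cells of a type and less RNA per cell cannot be told apart in bulk libraries, and this holds for all levels given here.

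Female and male mesangial cells differed in few genes. At an adjusted p below 0.05, 13 genes (0.0768% of those tested) differed between the 4 female and 4 male mesangial libraries. None was an identity gene, against 4.33% of all genes tested, so few would be looked for among 13. Of the 13 genes, 10 lay on the sex chromosomes, led by Ddx3y and Xist, which followed the labels. The other 3 were Lfng, a modifier of Notch receptors (mean 19.1 TPM in females and 10.1 in males, log2 difference 0.81 ± 0.14), Manba, a lysosomal mannosidase (3.98 and 2.40), and Prrg4 (0.278 and 0.01). A test of whether the mesangial difference itself varied by sex called 0 genes (0% of those tested), with 820 at an unadjusted p below 0.05 in edgeR and 0 called with RLE size factors. Fitted separately, females gave 731 and males 742 identity genes, each sharing 692 with the 732 (94.5%).

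The identity genes were also examined in WT mice of 12 weeks (24 libraries) and 18 weeks (21 libraries), which the rule had not used. At 12 weeks, 767 genes (4.32% of those tested) and at 18 weeks 709 genes (4.35%) met the same rule. Of the 732 genes, 653 were shared with 12 weeks (89.2% of the 6-week set and 85.1% of the 12-week set) and 640 with 18 weeks (87.4% and 90.3%), and 614 met the rule at all 3 ages. At 12 weeks 713 and at 18 weeks 698 of the 732 were tested, and 708 and 694 of these were higher than in both. All 20 leading genes were identity genes at both later ages. Their median smaller log2 fold change was 9.22 at 6 weeks, 9.93 at 12 weeks and 7.99 at 18 weeks. The level of the 100 leading genes in the other cells, as a share of the mesangial level, is the same comparison seen the other way. It was 0.0449 to 0.202% in podocytes of 12 weeks and 0.319 to 0.675% in those of 18 weeks. In gECs it was 0.142 to 0.262% and 0.236 to 1.08%. The cause of the change in folds was not tested.

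Of the identity genes that were tested at the later ages, few were no longer higher than in both. More fell short of the full 4-fold rule, as the counts above show. Adgrg6, Lyve1 and Cracr2a are examples of genes no longer higher than in both. Adgrg6, an adhesion G protein-coupled receptor, kept its mesangial level (mean 8.42 TPM at 6 weeks and 8.22 at 12 weeks), while its podocyte level was 1.92, 4.09 and 7.02 TPM at 6, 12 and 18 weeks, and the log2 difference from podocytes was 2.10, 0.95 and 0.10. Lyve1, a hyaluronan receptor of lymphatic endothelium, had 1.43, 2.67 and 2.11 TPM in mesangial cells and 0.306, 0.898 and 3.62 in gECs. Cracr2a, a calcium sensor, had 1.74, 1.67 and 1.03 TPM in mesangial cells and 0.259, 0.856 and 0.907 in gECs. Adgrg6 and Cracr2a were named after their values were seen, and the change with age itself was not tested.

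**Figure D5:**
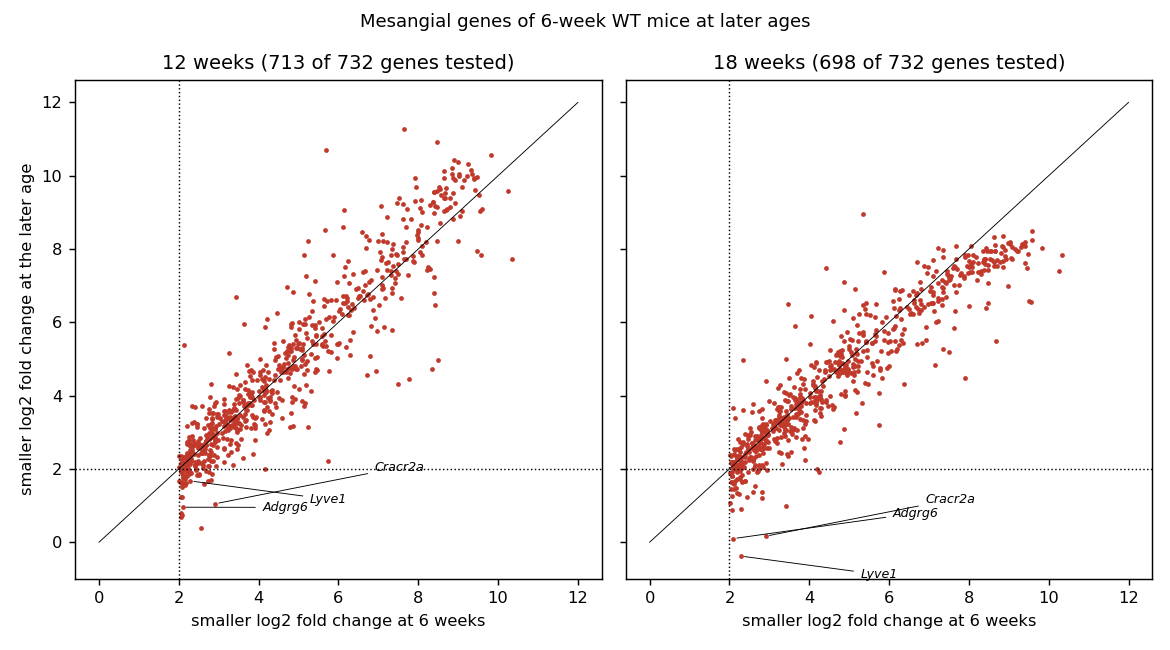
Smaller of the 2 log2 fold changes (mesangial cells against podocytes and against gECs) of the identity genes of 6-week WT mice, at 6 weeks (x axis) and at 12 weeks (left) or 18 weeks (right). Points are genes, the line marks equal values and dotted lines mark the 4-fold limit. Most genes lie along the line at 12 weeks, the leading genes lie below it at 18 weeks, and Adgrg6, Cracr2a and Lyve1 fall below the limit.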

How the data were processed

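Bulk RNA-seq of sorted glomerular cells was analysed from the RSEM gene tables. According to the submitters' processing notes and the study's methods, reads were checked with FastQC 0.11.5 and the authors aligned and quantified them against mm10 with Bowtie2 2.3.3.1 and RSEM 1.3.0, which gave the deposited expected counts and TPM per gene. TPM corrects for transcript length and sums to the same total in each library, so a level is relative to all other transcripts.

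Expected counts were rounded to whole numbers. Genes with low counts were removed with filterByExpr, and 16917 were tested with edgeR 4.0.16 (R 4.3.3; quasi-likelihood, TMM normalization, a term for sex, 24 libraries in 1 fit) with Benjamini-Hochberg adjustment over all genes tested. Sorted libraries of 12 and 18 weeks were fitted in the same way. On simulated counts with known changes, 39 of 50 genes changed 2-fold, 48 of 50 changed 4-fold and 50 of 50 changed 8-fold were found, with 0 calls among 16410 unchanged genes. Coordinates came from GENCODE M21 (GRCm38), in which 46005 of 46517 entries were matched, and 197 entries share a symbol.

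The members, gene lists and rules were chosen with earlier results of these data known. Genes named were the gate genes, the leading genes by the smaller fold change and by TPM, and the leading members of each list in each direction, plus 14 named after their values were seen. Alternatives were RLE size factors, DESeq2 1.42.0, limma 3.58.1 on log2(TPM + 1), no filter, no sex term, each sex alone, each contrast alone, other fold and TPM limits, the replicate number as a term, and each library left out. Leaving out 2 gEC libraries was chosen after seeing the data. Libraries of ob/ob mice were not used here, and some genes met by the naming rule are not reported here. Totals of 22.3 to 35.0 M counts (M for mega) per library limit the precision of genes under 1 TPM most.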

Additional observations from a re-analysis of the deposited data

Results flagged for a closer look

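Single libraries far from the other 7 of their type were looked for in the genes named above, by the gap to the nearest library as a share of the range (Dixon's 95% critical value for 8 libraries). In 47 of 384 groups of 8 libraries the highest or lowest library stood apart, where chance gives about 1 in 20 for normally distributed values, a rate that need not hold for TPM near 0.

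Of these, 11 were in podocyte male replicate 3, each as the highest podocyte value: 1.77 TPM for Steap4, 0.35 for Trpc6, 2.03 for Rgs4, 0.68 for Figf, 0.12 for Itga7, 1.65 for Pla2g4a, 18.6 for Igfbp4, and, among genes also found in endothelium, 2.13 for Plvap, 1.19 for Cdh5, 10.3 for Eng and 4.40 for Emcn. In podocyte male replicate 4 the highest values were 1.25 TPM for Pdgfra, 0.12 for Kcnmb1, 1.51 for Angpt2, 1.39 for Fras1, 0.04 for Mmp3, 11.7 for C1s1 and 245 for Ntrk3. In female podocytes, replicate 1 stood apart for Adora2b at 0.24 TPM, Dcn at 0.12 and Akr1b7 at 0.24, replicate 2 for Cpne4 at 0.56, and replicate 4 for Epha3 at 0.10, Epha7 at 0.97 and Ednra at 0.49. Apart from Ntrk3, a gene of podocytes, these values are far below the mesangial levels of the same genes or, for Cdh5, Eng and Emcn, the gEC levels.

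In gECs, male replicate 3 was highest for Abcb1a at 0.30 TPM, Des at 3.53, Figf at 0.77, Plau at 2.86 and Prrg4 at 1.14. Female replicate 4 was highest for Cxcl13 at 1.39 TPM, Ptn at 9.61, Pgf at 0.91, Heyl at 0.76 and Hey2 at 20.7. Male replicate 2, in which podocyte markers were highest, stood apart for Podxl at 1860 TPM, Vegfa at 682 and Col6a3 at 1.16. Trpc1 was lowest in male replicate 1 at 3.53 TPM, and Ren1, the renin gene, was highest in male replicate 4 at 11.0 against 1.81 in the next library.

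In mesangial cells, female replicate 4 was highest for Cdk1 at 19.2 TPM against 11.7 in the next library, for Nos3 at 1.14 and for Efemp1 at 0.27. Notch3 was lowest in male replicate 1 at 89.2 TPM, Lama2 was highest in female replicate 1 at 33.7, Itgb8 in female replicate 2 at 0.49 and Sulf2 in male replicate 2 at 1.36. No library stood apart in Itga8, Pdgfrb, Serpine2 or Gata3 in any of the 3 cell types.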

How the results depend on the processing

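Across alternatives the number of identity genes stayed between 521 and 799, except for 1197 with a limit of 2-fold in place of 4-fold, where the wider limit itself admits more genes. Of the 732 genes, 100% were kept with RLE size factors and without the filter, 99.5% with DESeq2 and 71.7% with limma on log2(TPM + 1). With limma on log2(TPM + 1), 185 genes were at least 4-fold lower than in both, against 380. In females alone 2039 genes were lower than in both, against 3060, with 12 libraries in place of 24. More genes were higher than in both than lower with RLE size factors (3028 and 2851) and with DESeq2 (3067 and 2933). The same order held without the filter, in each sex alone and with each contrast alone. More were lower, as in the main fit, with limma on log2(TPM + 1) (2591, against 2537 higher), without the sex term and with the replicate block. The 8 mesangial libraries fitted alone gave 7 genes that differed between the sexes, against 13. Prrg4, at -1.59 (log2) against gECs, was 0.068 in females alone, and the cause was not tested. Leaving out each library in turn gave 724 to 754 identity genes, 364 to 394 genes at least 4-fold lower, 2773 to 3224 higher than in both, 2764 to 3098 lower than in both, 12206 to 12571 calls against podocytes and 11325 to 11751 against gECs. Same-numbered libraries of different cell types correlated in their deviations at -0.0582 to 0.2555, with 9 of 24 pairs over 0.1, and 31 of 48 comparisons matched best to their own number. Each comparison chose among 4 libraries of the same sex, so 31 of 48 is more than picking at random would give. The labels do not say what the numbers mark, and the main fit did not take them as pairs. The matches leave it possible that same-numbered libraries shared a mouse or a preparation. With the replicate block, 732 identity genes, 383 at least 4-fold lower, 12450 calls against podocytes and 11757 against gECs were found, with 760 identity genes at 12 weeks and 711 at 18 weeks.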
